A study of Mus musculus with 6 samples.

Results

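SOX17 belongs to the SOX transcription factors, proteins that bind DNA through a domain first found in SRY, the testis-determining factor. The genes described here are Sox17 and 9 further members of its family that were named for a look at whether another Sox gene was higher where Sox17 was lowered. They are Sox7 and Sox18, which form the SoxF group with Sox17, the SoxC genes Sox4, Sox11 and Sox12, the SoxD genes Sox5, Sox6 and Sox13, and the SoxE gene Sox9. They are 10 of the 20145 genes that could be named on the array, and 10 further Sox genes on it serve for comparison. RNA had been measured in whole uteri of pregnant mice at gestation day (GD) 3.5, on 3 arrays of Sox17f/f females and 3 arrays of Sox17ed/ed females. Both genotypes carried the floxed Sox17 allele, and the females had been mated at 8 to 10 weeks of age to males of proven fertility. Sox17ed/ed females carried in addition LtfiCre, a recombinase driven from the lactoferrin gene that acts in the uterine epithelium once the animal has passed puberty, so other cells of these uteri keep Sox17. Embryos had been flushed from the horns, and the controls were littermates.

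SOX factors bend DNA at a short AT-rich core and usually act together with partner proteins, so that members with similar DNA-binding domains can occupy the same sites. SOX7, SOX17 and SOX18 are best known from the endothelium of blood vessels, where they share work in arterial and lymphatic differentiation and where loss of a member can be masked by another. SOX17 is also made in the epithelium of the oviduct and uterus. SoxC factors are typical of immature and proliferating cells, SoxD factors lack an activation domain of their own and assist SOX9 in cartilage, and SOX9 marks progenitors in several epithelia.

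Of the 10 genes, 7 had a probe that cleared background on 3 or more of the 6 arrays and were tested. Sox7 and Sox4 rose in Sox17ed/ed uteri, Sox17, Sox18 and Sox9 fell, and Sox12 and Sox13 did not pass the test. Sox5, Sox6 and Sox11 were too dim to be tested. The test was limma's moderated test over all 14790 genes that passed the same filter, with a call at a Benjamini-Hochberg adjusted p under 0.05. Over all those genes, 19.0% were called, 8.82% as higher and 10.1% as lower in Sox17ed/ed uteri. Among the tested Sox genes the 5 calls came to 71.4%, with 2 higher and 3 lower. Sox17, whose fall was set by the design, is among the 5 and among the 3 lower. The arrays of the genotypes did not overlap for the same 5 genes, against 40.5% of all genes tested. The genes were selected with earlier results of these arrays known, so these shares are a description and not a test of the family. The median log2 fold change of the 7 genes was -0.12, beside -0.0019 for all genes tested. Fold changes here are log2 signal in Sox17ed/ed minus log2 signal in Sox17f/f uteri, and levels are log2 of the background-subtracted signal after quantile normalization. A level of one probe cannot be set against that of another, so the genes are not ranked by abundance. In whole uterus, fewer cells of a type and less RNA per cell cannot be told apart.

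All 6 arrays lay on 1 slide and were read in 1 scan, with each genotype in a column of its own, so position on the slide and genotype cannot be told apart. Between 60.7% and 65.7% of spots were well above background on the Sox17f/f arrays and between 56.8% and 59.4% on the Sox17ed/ed arrays. The part of this difference in the results was not tested. No spot was saturated. The design text calls the samples biological without saying how many animals gave each one, so p-values measure the spread between these samples. With 3 arrays per genotype the exact permutation p of any single value is 0.1 at the least.

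**Figure D1:**
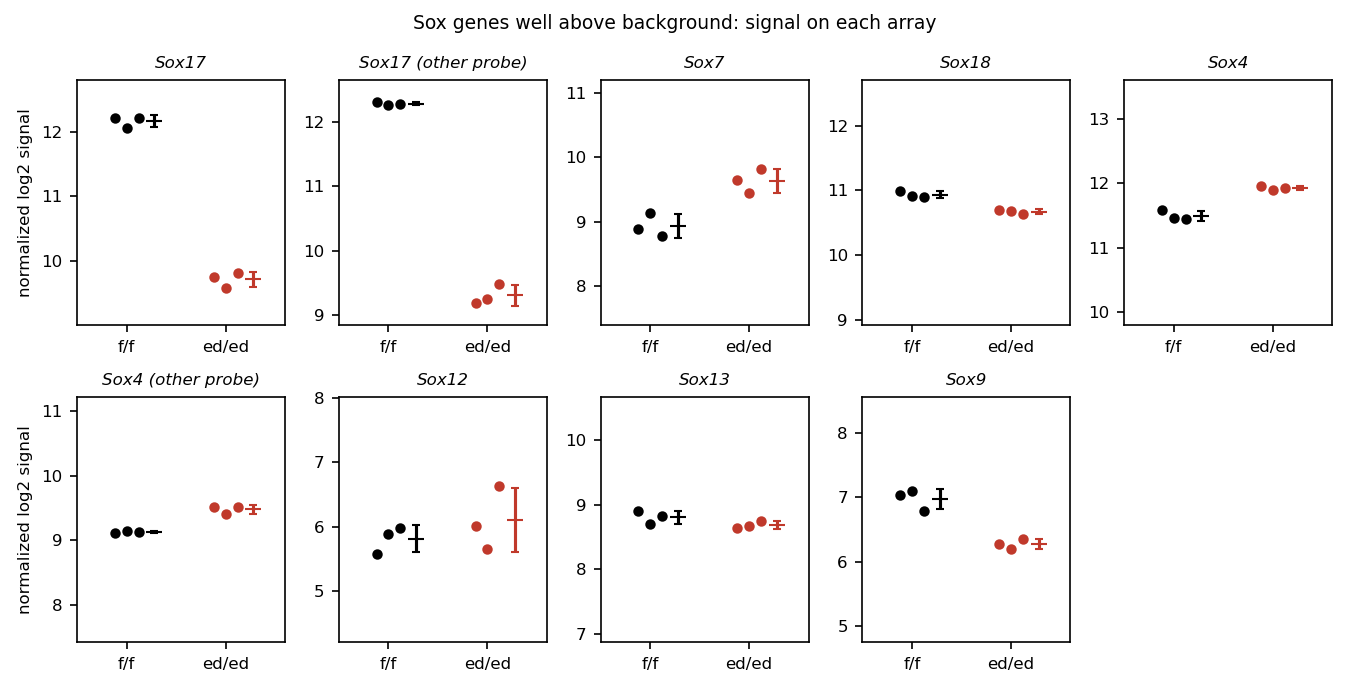
Normalized log2 signal (vertical axis, each panel spanning the same range of log2 units) of every probe of the 7 tested Sox genes on each array, with the Sox17f/f arrays in black and the Sox17ed/ed arrays in red. Points are arrays, and the bar beside them gives the mean and SD of 3 arrays. Both Sox17 probes fell far below their Sox17f/f values, Sox7 and both Sox4 probes lay higher in Sox17ed/ed uteri, Sox18 and Sox9 lay lower, and the genotypes overlap for Sox12 and Sox13.

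Sox17, the targeted gene, was measured by 2 probes. The probe brighter over all 6 arrays, which stood for the gene, read 12.21, 12.07 and 12.22 on the Sox17f/f arrays and 9.75, 9.59 and 9.81 on the Sox17ed/ed arrays. Every Sox17ed/ed array lay far below every Sox17f/f array, as the labels require, and each was still well above background. Its log2 fold change was -2.45 (SE 0.09, 95% confidence interval -2.66 to -2.24, limma adjusted p = 2.56e-05). This left 18.3% of the Sox17f/f signal, and 128 genes fell further. The other probe, brighter on the Sox17f/f arrays, read 12.31, 12.26 and 12.28 against 9.19, 9.25 and 9.49, a log2 fold change of -2.97 (SE 0.10, limma adjusted p over probes = 1.76e-05) that left 12.7%. Both probes therefore fell, by amounts that differed by 0.52 on the log2 scale. Where either probe lies relative to the deleted part of the gene was not analysed here.

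Sox7 is the SoxF gene whose product acts with SOX17 and SOX18 in vessel formation. Its probe read 8.89, 9.13 and 8.78 on the Sox17f/f arrays and 9.64, 9.45 and 9.82 on the Sox17ed/ed arrays. The lowest Sox17ed/ed array lay above the highest Sox17f/f array. The mean rose from 8.93 ± 0.18 to 9.63 ± 0.18 (SD, n = 3 each), a log2 fold change of 0.70 (SE 0.13, 95% confidence interval 0.38 to 1.02, limma adjusted p = 0.0154) or 1.63-fold. The rise was modest within the whole table, where 750 genes rose by more. Its size held without either first replicate, at 0.68 without Sox17f/f replicate 1 and 0.70 without Sox17ed/ed replicate 1, but the call was then lost (limma adjusted p = 0.0583 and 0.0549). An ordinary linear model in place of limma's moderated one also ended the call (adjusted p = 0.0626).

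Sox18, the SoxF gene whose mutation gives mice vascular and lymphatic defects, moved the other way. Its probe read 10.99, 10.91 and 10.89 on the Sox17f/f arrays and 10.69, 10.69 and 10.63 on the Sox17ed/ed arrays. The arrays of a genotype lay close together and the genotypes did not overlap. The log2 fold change was -0.26 (SE 0.06, 95% confidence interval -0.42 to -0.11, limma adjusted p = 0.0357), which left 83.4% of the Sox17f/f signal. The call was lost on leaving out any single array, with values from -0.28 to -0.23 and limma adjusted p from 0.0568 to 0.126, under normexp background correction, with -0.21 and adjusted p = 0.124, and with no filter on low signal, with adjusted p = 0.0577.

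**Figure D2:**
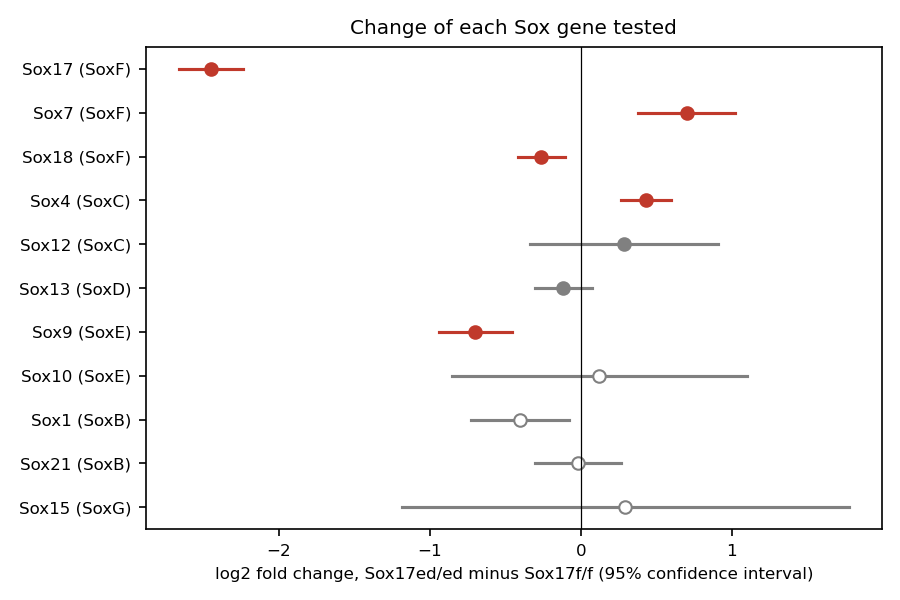
Log2 fold change (horizontal axis, Sox17ed/ed minus Sox17f/f) with its 95% confidence interval for each Sox gene tested, in red where the adjusted p was under 0.05 and in grey otherwise. Filled points are the 7 named genes and open points the 4 further Sox genes tested. Within SoxF, Sox17 lies at -2.45, Sox18 at -0.26 and Sox7 at 0.70.

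The SoxF genes were set against each other and against blood vessel genes within each array, which removes any scaling that an array's genes share. The log2 ratio of Sox7 to Sox18 was -2.11, -1.78 and -2.11 on the Sox17f/f arrays and -1.06, -1.24 and -0.81 on the Sox17ed/ed arrays. The ratio was higher on every Sox17ed/ed array, by 0.96 on the log2 scale or 1.95-fold (exact two-sided permutation p = 0.1, the smallest that 3 against 3 arrays allow). Sox7 alone lay higher and Sox18 alone lower without overlap, so the ratio had to separate. Its p therefore adds nothing to the values of the single genes. The signal of different probes carries no ratio of transcripts.

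Of 15 genes of blood vessel endothelium, all of them tested, 9 fell, 1 rose and 5 were not called, with a median log2 fold change of -0.36. Over all genes tested, 10.1% were called lower and 8.82% higher. Among the genes that define the cell type, Pecam1 fell by 0.29 on the log2 scale and Cdh5, the cadherin of endothelial junctions, by 0.43. The largest falls were those of Plvap, a protein of capillary fenestrae, at -1.0, and Vwf, the von Willebrand factor, at -0.84. Cldn5, a claudin of tight junctions, rose by 0.52. The mean log2 level of the 15 genes lay between 11.20 and 11.31 on the Sox17f/f arrays and between 10.89 and 10.96 on the Sox17ed/ed arrays. The 9 calls came down to 4 without Sox17f/f replicate 1 and to 5 without Sox17ed/ed replicate 1.

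The ratio of Sox7 to the mean of these 15 genes was -2.42, -2.07 and -2.53 on the Sox17f/f arrays and -1.31, -1.51 and -1.08 on the Sox17ed/ed arrays, a difference of 1.04 on the log2 scale or 2.06-fold. The ratio of Sox18 to the same mean was -0.31, -0.29 and -0.42 against -0.26, -0.27 and -0.26, a difference of 0.08 or 1.05-fold. Both ratios lay higher on all 3 Sox17ed/ed arrays (exact two-sided permutation p = 0.1 for each, over 4 ratios computed). For Sox7 this order was fixed beforehand, since Sox7 lay higher and the mean of the 15 genes lower without overlap. Sox18 thus changed nearly as much as the mean of the vessel genes, whereas Sox7 moved in the opposite direction. How far a different amount of vessel tissue enters either value was not tested.

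**Figure D3:**
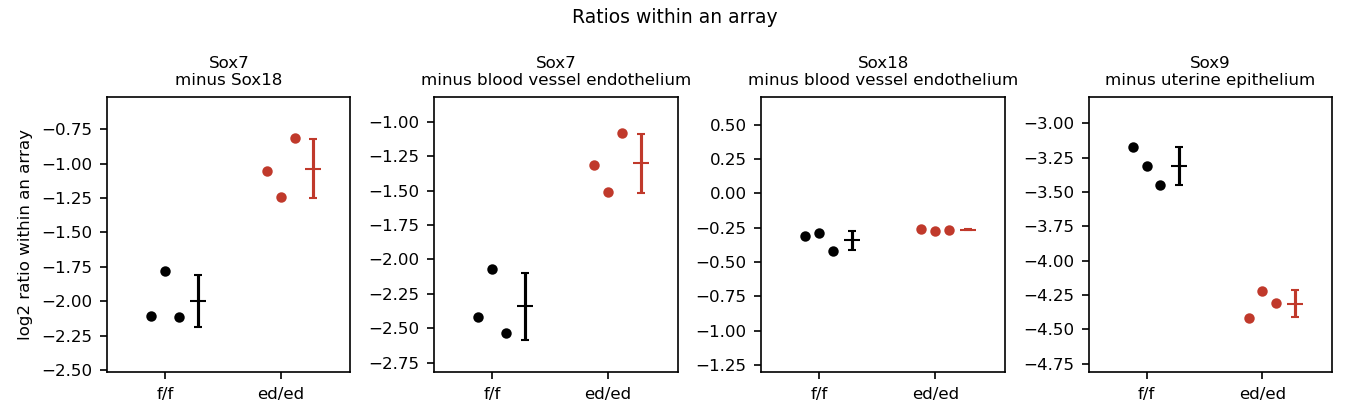
Log2 ratios within an array (vertical axes of equal span), with points for arrays and bars for mean and SD of 3 arrays, Sox17f/f in black and Sox17ed/ed in red. Sox7 gained on Sox18 and on the mean of 15 blood vessel genes, Sox18 shifted by 0.08 against that mean, and Sox9 lost on the mean of 12 uterine epithelium genes.

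Genes known as arterial or Notch-linked partners and targets of SoxF factors divided in both directions. Of 9 genes tested, 3 rose, 3 fell and 3 were not called, beside 19.0% of all genes called in either direction. Their median log2 fold change was -0.07. Efnb2, the ephrin ligand of arterial endothelium, rose by 1.07, Unc5b, a netrin receptor, by 1.02, and Esm1, a secreted product of endothelial tip cells, by 0.73. Those 3 genes went the same way as Sox7. Gja5 and Gja4, which encode connexins of arterial endothelium, fell by 1.20 and 0.64 on the log2 scale, and Hey1, a Notch target, fell by 0.54. The values of the uncalled genes were -0.23 for the Notch ligand Dll4, 0.03 for Notch4 and -0.07 for Nrp1. The mean log2 level of the 9 genes overlapped between genotypes, from 8.90 to 8.98 on the Sox17f/f arrays and from 8.93 to 9.01 on the Sox17ed/ed arrays. Several of these genes are made outside vessels too.

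Of 5 lymphatic endothelium genes tested, 1 fell, beside 10.1% of all genes called lower. It was Pdpn, which stromal and epithelial cells also make, at -0.72. The regulator Prox1, which SOX18 switches on in development, had a log2 fold change of 0.01 (95% confidence interval -0.37 to 0.40) and the receptor Lyve1 one of 0.02 (95% confidence interval -0.24 to 0.28).

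**Figure D4:**
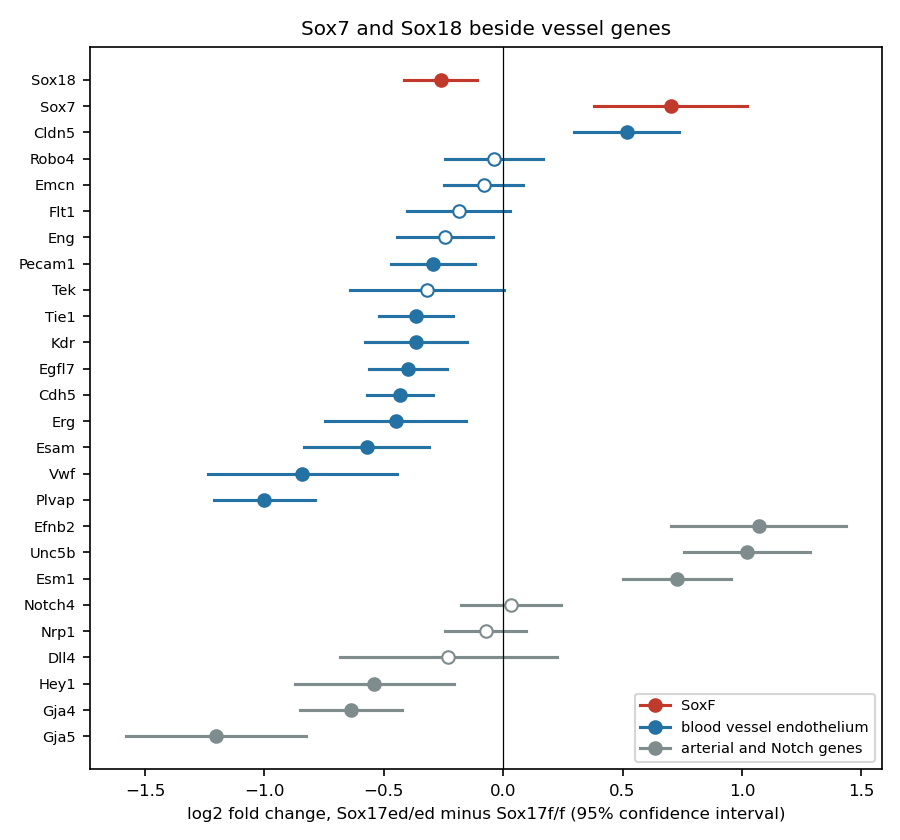
Log2 fold change (horizontal axis, Sox17ed/ed minus Sox17f/f) with its 95% confidence interval for Sox7 and Sox18 in red, 15 blood vessel endothelium genes in blue and 9 arterial and Notch genes in grey, with filled points where the adjusted p was under 0.05. Most blood vessel genes lie below 0 beside Sox18 at -0.26, and Sox7 at 0.70 lies among the genes that rose, with Efnb2, Unc5b, Esm1 and Cldn5.

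Sox4, a SoxC factor of progenitor and proliferating cells, was measured by 2 probes. The brighter one read 11.59, 11.47 and 11.44 on the Sox17f/f arrays and 11.96, 11.89 and 11.93 on the Sox17ed/ed arrays. All Sox17ed/ed values lay above all Sox17f/f values. The log2 fold change was 0.43 (SE 0.07, 95% confidence interval 0.26 to 0.59, limma adjusted p = 0.00811) or 1.35-fold, which is under the 1.4-fold that the study's methods ask for. The other probe read 9.11, 9.15 and 9.12 against 9.52, 9.40 and 9.52, again without overlap, with a log2 fold change of 0.35 (SE 0.07, limma adjusted p over probes = 0.0171). Of 9 cell cycle genes tested, limma called 0, with a median log2 fold change of 0.47. An unadjusted p under 0.05 was reached by 8 of them and by 33.9% of all genes tested. Mki67, a marker of cycling cells, had a value of 0.60 (limma adjusted p = 0.0692). Whether Sox4 and these genes moved together was not tested.

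Sox12, the SoxC gene closest to a ubiquitous pattern, read 5.58, 5.88 and 5.98 on the Sox17f/f arrays and 6.01, 5.65 and 6.64 on the Sox17ed/ed arrays. The genotypes overlapped and the Sox17ed/ed arrays were widely spread. Its log2 fold change was 0.29 (SE 0.26, 95% confidence interval -0.34 to 0.91, limma adjusted p = 0.482), an interval wide enough to hold a rise like that of Sox4. The value was 0.02 without Sox17ed/ed replicate 3, 0.51 without Sox17ed/ed replicate 2 and 0.17 without Sox17f/f replicate 1. Sox11, the SoxC gene of embryonic nervous tissue, was well above background by 1 of its 2 probes on 1 Sox17f/f array and on no other array. Its values, from 1.75 to 3.59 over both probes and all arrays, lie at the lower end of the scale and no fold is given.

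RefSeq promoter sequences were at hand for 6 of the 10 genes, those of the SoxC and SoxD groups. The 3 SoxC promoters are shown, because this group held a called, an uncalled and a dim gene. Each runs 5′ to 3′ on the gene's own strand, from 250 bases before to 50 bases after the annotated start, in build GRCm38.p6. Capitals mark the CCAAT box, written CCAAT or ATTGG on the other strand, a motif of many vertebrate promoters that was picked after the sequences were seen. All 3 genes lie on the minus strand, Sox4 at chr13:28953650-28953949, Sox12 at chr2:152397997-152398296 and Sox11 at chr12:27342669-27342968.
Sox4: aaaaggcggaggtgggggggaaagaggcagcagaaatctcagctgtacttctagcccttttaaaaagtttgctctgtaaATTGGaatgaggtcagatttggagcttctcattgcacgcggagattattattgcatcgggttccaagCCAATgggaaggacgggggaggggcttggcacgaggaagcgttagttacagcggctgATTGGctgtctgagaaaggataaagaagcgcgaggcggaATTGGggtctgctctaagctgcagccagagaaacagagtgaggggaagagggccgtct
Sox12: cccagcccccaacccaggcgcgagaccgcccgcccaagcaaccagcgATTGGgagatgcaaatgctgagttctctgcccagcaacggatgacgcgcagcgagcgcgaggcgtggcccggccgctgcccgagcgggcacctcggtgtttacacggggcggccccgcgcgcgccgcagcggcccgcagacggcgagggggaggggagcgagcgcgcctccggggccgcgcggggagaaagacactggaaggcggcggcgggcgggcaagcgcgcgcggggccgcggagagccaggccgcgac
Sox11: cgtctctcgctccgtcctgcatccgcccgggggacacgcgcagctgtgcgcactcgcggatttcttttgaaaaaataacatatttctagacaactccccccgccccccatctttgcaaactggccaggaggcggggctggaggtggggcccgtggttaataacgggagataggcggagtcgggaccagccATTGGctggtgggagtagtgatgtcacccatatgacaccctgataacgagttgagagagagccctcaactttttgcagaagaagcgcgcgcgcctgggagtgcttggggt

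The Sox4 promoter held 4 matches, which began 171, 104, 47 and 8 bases before the start, and no 2 of them overlapped. Sox12 held 1 match at 203 bases and Sox11 1 match at 60 bases before the start. Of all 32851 promoters of this length, 37.4% held at least 1 such match. The SOX core motif, searched as ACAAT and ATTGT, had 0 matches in all 3 windows, while 31.0% of all promoters held it. The searched forms of both motifs can overlap, but with 0 SOX core matches none did in these windows. These are matches of letters within 300 bases and carry no statement on binding.

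Sox13, the SoxD gene known from lymphocytes and arteries, read 8.90, 8.70 and 8.82 on the Sox17f/f arrays and 8.64, 8.68 and 8.75 on the Sox17ed/ed arrays. The ranges overlapped, and the log2 fold change was -0.12 (SE 0.08, 95% confidence interval -0.31 to 0.07, limma adjusted p = 0.339). The interval leaves out a rise of the size of Sox7. Sox5 and Sox6, the SoxD partners of SOX9 in cartilage, had 1 probe each, and neither probe was well above background on a single array. The Sox5 probe read from 1.64 to 3.76 and the Sox6 probe from 1.81 to 2.17, and no fold is given for either.

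Sox9, a SoxE factor of cartilage, testis and epithelial progenitors, is spotted 10 times on each array, of which 8 to 10 spots were used. The means over spots were 7.03, 7.10 and 6.79 on the Sox17f/f arrays and 6.27, 6.21 and 6.35 on the Sox17ed/ed arrays. The arrays did not overlap, and even the lowest single spot of any Sox17f/f array, at 6.61, lay above the highest single spot of any Sox17ed/ed array, at 6.52. Spots of one array varied with an SD of 0.05 to 0.16, and they are repeats of a measurement rather than replicates. The log2 fold change was -0.70 (SE 0.10, 95% confidence interval -0.94 to -0.46, limma adjusted p = 0.00529), which left 61.6% of the Sox17f/f signal. With normexp background correction the fall was smaller, at -0.42, and still called.

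**Figure D5:**
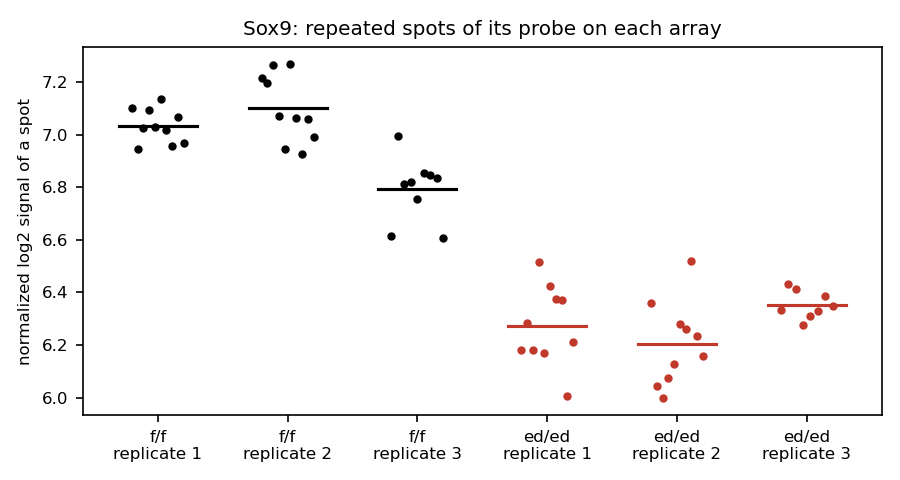
Normalized log2 signal (vertical axis) of each used spot of the Sox9 probe on each array, with a line at the array mean, Sox17f/f in black and Sox17ed/ed in red. No spot of a Sox17ed/ed array reached the lowest Sox17f/f spot at 6.61.

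Among 12 uterine epithelium genes, all tested, 4 rose, 3 fell and 5 were not called, beside 19.0% of all genes called in either direction. Their median log2 fold change was 0.02. The keratin gene Krt19 rose by 2.10, and Cldn3 and the splicing factor gene Esrp2 fell by 1.16 and 0.96 on the log2 scale. The defining gene Epcam had a value of 0.10 and Cdh1 rose by 0.59. The mean log2 level of the list lay between 10.21 and 10.41 on the Sox17f/f arrays and between 10.43 and 10.69 on the Sox17ed/ed arrays. Against that mean, the log2 ratio of Sox9 was -3.17, -3.31 and -3.45 on the Sox17f/f arrays and -4.41, -4.22 and -4.31 on the Sox17ed/ed arrays. It lay lower on every Sox17ed/ed array, by a difference of -1.0 (exact two-sided permutation p = 0.1), or -0.68 under normexp background correction. Sox9 alone lay lower and the mean of the list higher without overlap, so this order was fixed beforehand and its p adds nothing.

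All 6 uterine gland genes tested fell, beside 10.1% of all genes called lower. Of the 6, 2 were well above background on all 6 arrays. Among them was Foxa2, the factor required for gland formation, with a log2 fold change of -4.51. Lif, the cytokine glands release for implantation, was not well above background on any Sox17ed/ed array. It entered the test through the Sox17f/f arrays alone, as did another gene of this list. The mean log2 level of the 6 genes lay between 10.47 and 11.05 on the Sox17f/f arrays, and for the Sox17ed/ed arrays no mean is given, since 4 of the genes were not well above background on every one of these. The part of gland tissue in the fall of Sox9 was not tested. Of 4 cartilage genes tested, which are known targets of SOX9 with SOX5 and SOX6, 1 fell, beside 10.1% of all genes called lower. It was Col11a2, at -0.43, and its call was lost under 10 of 16 alternatives. Acan had a larger value of -0.60, without overlap of the genotypes, but was not called (limma adjusted p = 0.148). The uncalled Comp and Hapln1 had values of 0.25 and 0.57. All 4 genes were dim, with a mean log2 level between 5.29 and 5.56 on the Sox17f/f arrays.

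The other Sox genes gave 0 calls by limma. Of 10, 4 were tested, and 1 of these, Sox1, passed an unadjusted p under 0.05, as did 33.9% of all genes tested. Sox1, a SoxB factor of the nervous system, read 5.59, 5.33 and 5.62 against 5.29, 4.88 and 5.15, without overlap, with a log2 fold change of -0.40 (SE 0.13, limma adjusted p = 0.0862). The values of the rest were 0.12 for Sox10, 0.29 for Sox15 and -0.02 for Sox21. Intervals for Sox10 and Sox15 were wide, at -0.85 to 1.1 and -1.18 to 1.77. Sox2, Sox3, Sox8, Sox14 and Sox30 were not well above background on any array, and Sry was so on 2 Sox17f/f arrays only, near the lower limit of detection. Apart from Sox7 and Sox4, therefore, no Sox gene on the array was called higher in Sox17ed/ed uteri. None of the 9 untested Sox genes was well above background on a Sox17ed/ed array.

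SOX17 can bind beta-catenin and oppose its TCF and LEF partners, and these 5 genes were counted too. Of these, 1 rose, Tcf7 at 0.47 (limma adjusted p = 0.0442), beside 8.82% of all genes called higher. The Tcf7 call was lost under 7 of 16 alternatives. Among them were leaving out Sox17ed/ed replicate 1 or any of the Sox17f/f arrays, no filter on low signal and the ordinary linear model. Values were 0.19 for Tcf7l1, 0.50 for Tcf7l2, -0.11 for Lef1 and -0.02 for Ctnnb1, the gene of beta-catenin. Of the remaining lists, 9 endometrial stroma genes gave 1 higher call (Hoxa10, 0.34) and 1 lower (Dcn, -0.42), and 6 smooth muscle genes gave 2 lower calls (Actg2, -0.64, and Cnn1, -0.48), beside 19.0% of all genes called. Both stroma calls were lost without Sox17f/f replicate 1, and the lower one also without Sox17f/f replicate 2 or Sox17ed/ed replicate 1. The smooth muscle count was 1 without the first or second replicate of either genotype and 4 with an intensity trend. Of 4 squamous basal epithelium genes tested, 2 keratin genes rose, beside 8.82% of all genes called higher. The count of this list was 0 or 1 under 10 of 16 alternatives and up to 3 under the others. Krt15 and Krt5 were not well above background on any Sox17f/f array and were so on all 3 Sox17ed/ed arrays, through which alone they entered the test. Trp63, the factor that defines basal cells, had a value of -0.12 by its brightest probe. With the mean of the probes, or with the probe with the smallest p, 3 genes of this list were called higher. By qRT-PCR the study reports more Trp63 mRNA in Sox17ed/ed than in Sox17f/f uteri.

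Profiles over the 6 arrays were compared with those of Sox17, Sox7 and Sox9 by the root mean square (RMS) difference of log2 signals after each gene's mean was removed. The genes most like Sox17 were Nxpe5, at an RMS difference of 0.09, the sorting receptor gene Sorl1 at 0.115, and then Fbxw18, the transporter gene Slc5a8 and Dgat2, an enzyme of triglyceride synthesis, at up to 0.16. Sox7 was nearest to Elovl7, an elongase of fatty acids, at 0.05, followed by Atoh8, Gsto1, Fkbp5 and Rnu3b1 at up to 0.08. Sox9 was nearest to Ctps, the CTP synthase gene, at 0.04, followed by Eea1, Pde10a, Arhgap44 and Pcdhb2 at up to 0.05. With 6 arrays in 2 genotypes, genes with a like difference between genotypes come out near each other by construction, so the likeness is a description.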

How the data were processed

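RNA of 6 whole uteri samples, 3 Sox17f/f and 3 Sox17ed/ed by their labels, had been hybridized to Agilent arrays of 1 colour. The authors deposited the scanner intensity of every spot and a value table of the series, whose entries lay within 0.191% of the mean processed signal of each probe. The file headers name Feature Extraction 11.0.1.1, the submitters' processing notes version 9.1. In the deposited intensity used here, the processed signal, background had been subtracted and no normalization between arrays applied, so values near background are uncertain on a log scale. Between 169 and 302 outlier spots per array were left out, as were control spots.

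Log2 signals were quantile normalized in R 4.3.3 and spots of a probe averaged. A probe was kept if it was marked as well above background on 3 or more of the 6 arrays and had a value on all 6 (115 named probes lacked a value on an array), and the brightest probe stood for a gene. Of 55681 probes, 26582 were named by accession through the RefSeq table of GRCm38.p6. Genotypes were compared with limma 3.58.1 (lmFit and eBayes, Benjamini-Hochberg over all genes or all probes). Ratios within an array were compared by exact permutation. Scripts were tested on simulated data. Python 3.11.15, pandas 2.3.3 and matplotlib 3.10.9 read promoters and drew plots.

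The Sox genes and all lists were chosen with earlier results of these data known. The text names all Sox genes on the array, the genes of each list that were called (at most 2 rises and 2 falls) or that define it, and the 5 genes most like Sox17, Sox7 and Sox9. Genes named beyond that rule, such as Esm1, Hey1 and the uncalled genes of the short lists, were chosen after their values were seen. A gene that the rule names is not reported here. Alternatives were another normalization, background correction, filter, probe rule and variance model, the deposited table, the replicate number as a block, each array left out, and the methods' rule of an unadjusted p under 0.01 with a 1.4-fold change. Normexp used the median signal, since the scanner files used here hold no mean signal. The slide was not used as a block, since all arrays share it.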

Additional observations from a re-analysis of the deposited data

How the results depend on the processing

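Sox17, Sox4 and Sox9 kept their direction and call under the 10 alternatives to the fit and on leaving out each array, with log2 fold changes of -2.97 to -2.40, 0.32 to 0.43 and -0.70 to -0.42 over the alternatives. None of the 7 tested genes among the 10 named ones changed direction under them. Sox7 was no longer called with an ordinary linear model (0.70, adjusted p = 0.0626) or without Sox17f/f replicate 1 or Sox17ed/ed replicate 1 (adjusted p = 0.0583 and 0.0549), and ranged from 0.61 to 0.80 on leaving out each array. Sox18 was no longer called with normexp (-0.21, adjusted p = 0.124), with no filter on low signal (-0.26, adjusted p = 0.0577), or without any one array (-0.28 to -0.23). The number of Sox genes called higher was therefore 1 with the ordinary linear model and without those arrays, so between 1 and 2 on leaving out each array, and also 1, Sox7, by the methods' rule, since Sox4 changed by less than 1.4-fold. The cause was not tested, beyond the fewer arrays of some fits. Blood vessel genes called lower numbered 4 with the ordinary linear model, and cell cycle genes called higher 5 with normexp, 4 with an intensity trend and 5 without Sox17f/f replicate 3.

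The labels do not state that replicate numbers pair the arrays. Correlations between deviations of same-numbered arrays were 0.06, -0.11 and 0.0003, and with 3 arrays per genotype a weak pairing could not be seen. With the replicate block, Sox7 (0.70, adjusted p = 0.0647) and Sox18 (-0.26, adjusted p = 0.0982) were not called, 1 Sox gene was called higher, and calls over all genes went from 2805 to 1860. Of the other Sox genes, 1 was called lower under it.

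Calls over all genes ranged from 1659 without Sox17f/f replicate 1 to 3306 with an intensity trend, with 1927 by the ordinary linear model and 2077 of 20036 without a filter on low signal. Without the filter, Sox11 by its brighter probe, Sox5 and Sox6 were not called, with limma adjusted p of 0.312, 0.644 and 0.334. These probes had little signal over background.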
